A study of Mus musculus with 24 samples.

Results

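The urea cycle genes examined here are 10 mouse genes, Cps1, Otc, Ass1, Asl, Arg1, Nags, Slc25a15, Slc25a13, Glud1 and Got1. They are a list of genes of known role, chosen with earlier results of these data known and taken by symbol as the rows of those names in each of 24 liver RNA sequencing tables. They are 10 of the 17537 genes that were above 0 in any table. Each symbol had 1 row, each gene was above 0 in all 24 libraries, and all 10 passed the filter on low values and were tested. The livers came from male C57BL/6 mice of 20 to 30 g given substances by gavage, with 6 libraries in each of 4 groups. The CT group received the vehicle, 0.5% CMC. The EtOH group received ethanol at 1 g/kg, the DEHP group received the plasticiser di(2-ethylhexyl) phthalate at 2500 mg/kg, and the DE group received both. The labels name CMC for the vehicle group only. They describe 12 mice per group and do not say how these became 6 libraries, so a p-value here measures the spread between libraries. They give neither the length of treatment nor the time of collection. The design allows each treated group to be set against the vehicle, and the combination against each substance alone.

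The urea cycle converts ammonia, released when amino acids are broken down, into urea that the kidney excretes, and the liver is the organ that runs the whole cycle. Nags makes N-acetylglutamate, the activator that Cps1 needs. Cps1 and Otc work inside the mitochondrion, where ammonia and bicarbonate become carbamoyl phosphate and then citrulline. Ass1, Asl and Arg1 work in the cytosol, where citrulline and aspartate yield arginine and finally urea and ornithine. Slc25a15 carries ornithine and citrulline across the inner mitochondrial membrane, and Slc25a13 (citrin) exports aspartate to the cytosol. Glud1 links glutamate to ammonia, and Got1 interconverts aspartate and oxaloacetate in the cytosol. Periportal hepatocytes carry most of the cycle, and pericentral hepatocytes capture remaining ammonia as glutamine.

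Cps1, Otc, Asl and Arg1 fell after DEHP, alone or with ethanol, and Ass1 and Glud1 passed the test in the combination. Cps1 and Slc25a15 fell with ethanol alone and in the combination. Nags rose in every treated group. A gene was called changed at an adjusted p below 0.05 (edgeR's quasi-likelihood test with Benjamini-Hochberg adjustment over 10697 genes), and every adjusted p below comes from that test. DEHP against CT gave 4 members called lower (Cps1, Otc, Asl and Arg1), 1 called higher (Nags) and 5 not called, where 26% of all tested genes were called, 11.6% lower and 14.4% higher. The combination against CT gave 7 called lower (those 4 with Ass1, Slc25a15 and Glud1), 1 higher (Nags) and 2 not called, where 36.8% of all genes were called, 17.4% lower and 19.3% higher. Ethanol against CT gave 2 called lower (Cps1 and Slc25a15), 1 higher (Nags) and 7 not called, where 28.8% of all genes were called, 14.5% lower and 14.2% higher. The share lower was therefore 2 of 10 with ethanol, near the background, and above it with DEHP and with the combination. The members' median log2 change was -0.13 with ethanol, -0.19 with DEHP and -0.27 with the combination, where the median over all genes was -0.01, -0.02 and -0.01. The 3 treated groups share the same 6 vehicle libraries.

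**Figure D1:**
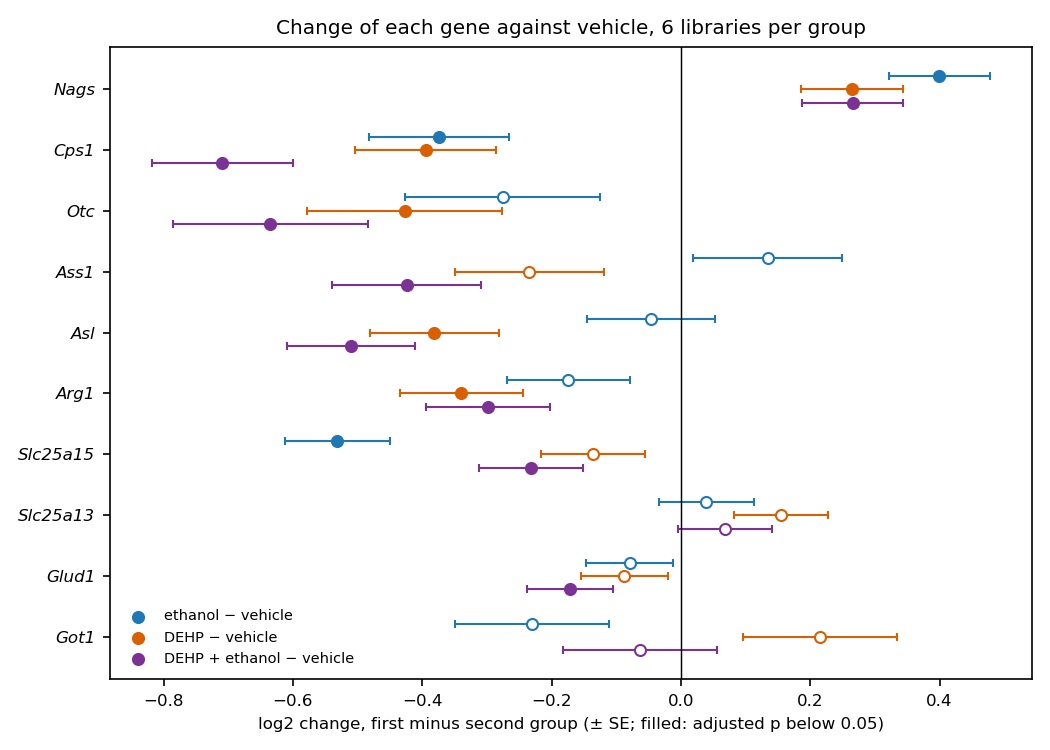
Log2 change of each of the 10 genes against the vehicle group (x axis, log2 units) for EtOH, DEHP and DE, with bars of 1 standard error and filled points for changes called at an adjusted p below 0.05. Nags lies to the right of 0 in all 3 comparisons, and Cps1 lies to the left in all 3 with its largest fall, -0.71, in the combination.

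Most hepatocyte marker transcripts fell in both groups given DEHP, but unlike the members' median theirs was above 0 with ethanol. Of 7 such markers, 6 were called lower with DEHP (median -0.50, range -0.87 to -0.30) and 6 with both (median -0.53), and none was called lower with ethanol, where 2 were higher (median 0.23). Their summed FPKM (fragments scaled to transcript length and library size) ran from 66420 to 81960 in CT, 71960 to 85760 in EtOH, 49470 to 55910 in DEHP and 49190 to 54460 in DE. Alb, serum albumin, fell by 0.64 ± 0.11 with DEHP (adjusted p = 0.000179), more than any urea cycle member in that comparison. Under quantile normalization, which sets the most abundant transcripts of all libraries equal, Alb was at -0.00. The part of the markers in the members' falls was not tested, and in whole liver fewer cells of a type and less RNA per cell cannot be told apart. Of other cell types, 3 of 7 endothelial and 2 of 4 bile duct markers tested were called lower with ethanol, with summed levels of 52.1 to 109.9 and 23.5 to 38.8 FPKM in CT and 40.7 to 57.1 and 16.8 to 19.4 in EtOH. With DEHP and with both, 2 of 7 endothelial and 1 of 4 bile duct markers were called lower, with summed levels of 54.9 to 89.9 and 19.3 to 27.9 FPKM in DEHP and 52.2 to 84.7 and 14.01 to 29.4 in DE. Of 5 stellate markers, 1 (Dcn) was called lower with ethanol and with DEHP, with summed levels of 50.3 to 96.1 FPKM in CT, 34.4 to 49.8 in EtOH, 44.7 to 52.3 in DEHP and 48.6 to 80.4 in DE. Of 2 fat markers tested, Fabp4 was called higher with DEHP and with both. So was Fabp2, the only 1 of 5 intestine markers that was tested. Of 4 red cell markers tested, Alas2 was called lower with both. Of all tested genes, 14.5% were called lower with ethanol, 11.6% with DEHP and 17.4% with both, and 14.2%, 14.4% and 19.3% higher. The part of these cell types in the members' changes was not tested.

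Together the 10 genes took 1.32% ± 0.112 of the reads assigned to genes in the vehicle group (SD, n = 6). This share was 1.15% ± 0.0521 with ethanol, 1.11% ± 0.123 with DEHP and 0.965% ± 0.0539 with both. Libraries ranged from 1.11% to 1.41% in CT and from 0.87% to 1.02% in DE, so those groups did not overlap.

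Libraries held between 7324793 and 8016662 expected counts, and the members had between 606 (Nags) and 39515 (Cps1) counts in a library. All 7 hepatocyte markers reached 1 FPKM in every group, and the kidney markers summed to at most 0.37 FPKM. The 6 skeletal muscle markers summed to 4832 FPKM in CT replicate 1 and 3592 FPKM in DE replicate 6, and to at most 3.47 FPKM in the others. The 6 exocrine pancreas markers summed to 486.8 FPKM in DEHP replicate 6 and to at most 3.19 FPKM elsewhere. CT replicate 1 was the lowest vehicle library for 8 of the 10 members. Without those 3 libraries the members' counts were 1 higher and 3 lower with ethanol, 0 higher and 5 lower with DEHP, and 1 higher and 7 lower with the combination. DEHP replicate 1 was the lowest DEHP library for 6 of the 10 members. Its Kupffer cell, neutrophil and fat markers summed to 192.8, 65.26 and 152.1 FPKM. The other DEHP libraries ran from 70.84 to 81.16, 1.49 to 7.31 and 17.73 to 78.65 FPKM. CT replicate 3 also had 156.1 FPKM of Kupffer markers. No tested Kupffer or neutrophil marker was called against the vehicle. The part of these cells in the members' levels was not tested. The 6 checked targets of PPARA, the nuclear receptor that phthalates are known to activate in rodent liver, rose with DEHP and with the combination and were not called with ethanol, with median log2 changes of 3.63, 3.93 and 0.28. Ehhadh, a peroxisomal beta-oxidation enzyme, rose by 4.63 ± 0.24 with DEHP (adjusted p = 4.15e-13).

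Levels per transcript length spanned a wide range. In the vehicle group Ass1 was the most abundant at 2859 ± 374 FPKM, and its libraries did not overlap those of the next gene. Arg1 (912 ± 101) and Cps1 (862 ± 81.8) followed with overlapping ranges, then Glud1 (430.01 ± 34.5) and Asl (335 ± 45.6), also overlapping. Otc (163 ± 14.3), Got1 (158 ± 29.2) and Slc25a15 (112 ± 13.97) overlapped from one to the next, and Slc25a13 (74.8 ± 7.53) and Nags (45.9 ± 4.91) were the lowest. Ass1 stayed first and Nags last in all 4 groups. Arg1 and Cps1, which overlapped in the vehicle group, did not overlap in the DE group, where Arg1 was at 747 ± 54.3 and Cps1 at 530.1 ± 68.5 FPKM. Got1 stood above Otc after DEHP and after the combination. The coefficient of variation within a group ran from 4.24% for Glud1 in the DEHP group to 32.2% for Otc in the same group, with a median of 10.2%.

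**Figure D2:**
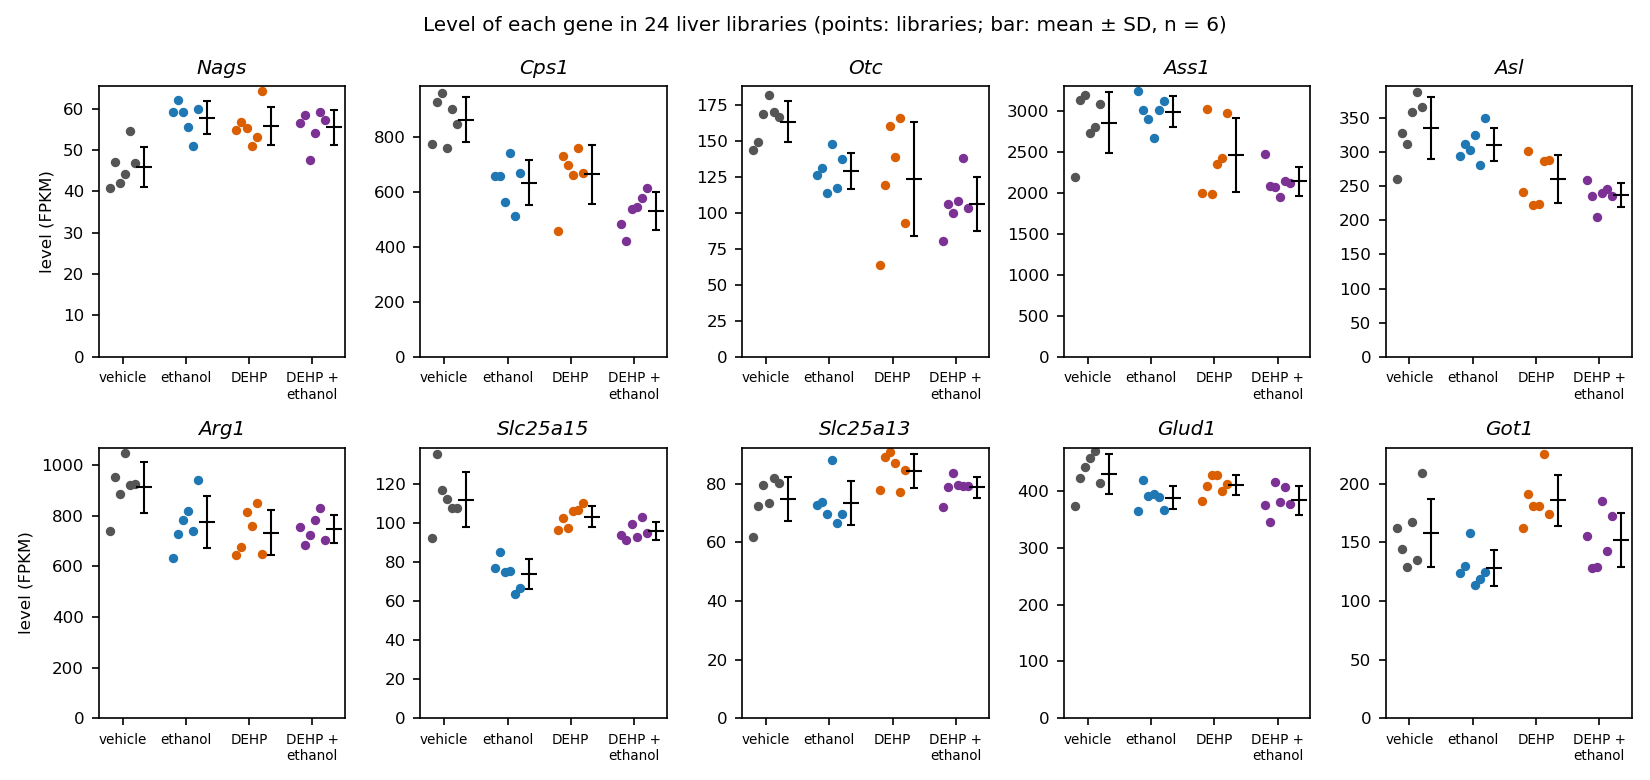
FPKM of each of the 10 genes in all 24 libraries (1 point each), by group, with the group mean and a bar of 1 SD. Each panel has its own y axis. Cps1 and Slc25a15 show EtOH points wholly below the CT points, and 1 DEHP library of Otc lies at 64.0 FPKM.

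Nags, the activator's synthase (gene identifier 217214, chromosome 11, 102145513 to 102149528, GRCm38.p6), was the only member called higher in any comparison with the vehicle. Its libraries ran from 40.9 to 54.6 FPKM in CT (median 45.5), from 51.0 to 62.0 in EtOH (median 59.2), from 51.0 to 64.3 in DEHP (median 55.0) and from 47.5 to 59.2 in DE (median 56.9). Every treated group overlapped the vehicle group, although all 3 treated medians were above the highest vehicle library. The log2 change was 0.40 ± 0.08 with ethanol (SE, adjusted p = 0.0007), 0.26 ± 0.08 with DEHP (adjusted p = 0.0147) and 0.27 ± 0.08 with both (adjusted p = 0.00998). The DEHP call was lost in a fit of the 2 groups alone (0.25, adjusted p = 0.0566) and without CT replicate 1 (0.22, adjusted p = 0.0502) or DEHP replicate 6 (0.22, adjusted p = 0.0602). Without those and DE replicate 6 it was 0.16 (adjusted p = 0.16), while the ethanol and combined calls held at 0.35 and 0.21.

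Cps1, which makes carbamoyl phosphate and is the cycle's rate-controlling step (227231, chromosome 1, 67122426 to 67231267), fell in all 3 treated groups. Values ran from 759.6 to 959 FPKM in CT (median 875), from 513 to 740.4 in EtOH (median 659), from 458 to 761 in DEHP (median 684) and from 422 to 613 in DE (median 542). The EtOH and DE libraries all lay below the lowest vehicle library, and the DEHP group overlapped it by a narrow margin. It changed on the log2 scale by -0.37 ± 0.11 with ethanol (adjusted p = 0.0126), -0.39 ± 0.11 with DEHP (adjusted p = 0.00897) and -0.71 ± 0.11 with both (adjusted p = 1.81e-05). As mean FPKM the differences were -26.5%, -23.0% and -38.5%. Cps1 has the longest transcript of the members, 5585 bases, and the ethanol call was lost when the trend of counts with gene length was removed in each library (-0.22, adjusted p = 0.104).

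Otc, which joins carbamoyl phosphate to ornithine (18416, chromosome X, 10252230 to 10321024), was called lower in both groups given DEHP. Its libraries ranged from 144 to 182 FPKM in CT (median 168), from 114 to 148 in EtOH (median 129), from 64.0 to 166 in DEHP (median 129) and from 80.2 to 138 in DE (median 105). All DE libraries were below the lowest vehicle library, and EtOH and DEHP overlapped the vehicle group. The log2 change was -0.43 ± 0.15 with DEHP (adjusted p = 0.0378) and -0.64 ± 0.15 with both (adjusted p = 0.00186), and it was -0.28 ± 0.15 with ethanol (adjusted p = 0.168, not called). The DEHP call depended on single libraries. It was lost without DEHP replicate 1, the library at 64.0 FPKM (-0.30, adjusted p = 0.0778), without CT replicate 3, 4, 5 or 6 or DEHP replicate 2 or 6, and without the 3 libraries that carried muscle or pancreas transcripts (-0.42, adjusted p = 0.0742). It was also lost with no normalization factors, with no filter and in a fit of the 2 groups alone. All 6 ethanol libraries lay below the vehicle mean. The ethanol change was called in a fit of EtOH and CT alone (-0.29, adjusted p = 0.0123). It was also called with limma on log2(TPM + 1) (-0.44, adjusted p = 0.0371).

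Ass1, which couples citrulline to aspartate (11898, chromosome 2, 31470270 to 31520670), fell in the combined group. Levels per library ran from 2199 to 3199 FPKM in CT (median 2945), from 2676 to 3242 in EtOH (median 3013), from 1987 to 3022 in DEHP (median 2388) and from 1951.5 to 2476 in DE (median 2105). Ethanol libraries ran from the middle of the vehicle range to just above its top. DE libraries overlapped only its lower end, through CT replicate 1 alone. On the log2 scale the change was -0.42 ± 0.12 with both (adjusted p = 0.00547), -0.23 ± 0.12 with DEHP (adjusted p = 0.135, not called) and 0.13 ± 0.12 with ethanol (adjusted p = 0.394, not called). The DEHP change depended on CT replicate 1, the lowest vehicle library and the one with muscle transcripts: without it the change was -0.31 (adjusted p = 0.0331), and without all 3 such libraries -0.39 (adjusted p = 0.0144).

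Asl, which splits argininosuccinate into arginine and fumarate (109900, chromosome 5, 130011258 to 130024381), fell in both groups given DEHP. Single libraries ran from 260.1 to 387 FPKM in CT (median 343), from 281 to 349 in EtOH (median 307), from 223 to 301 in DEHP (median 264) and from 205 to 258 in DE (median 238). No DE library reached the lowest vehicle library, and EtOH lay inside the vehicle range. The log2 change was -0.38 ± 0.10 with DEHP (adjusted p = 0.00607) and -0.51 ± 0.10 with both (adjusted p = 0.00028), and it was -0.05 ± 0.10 with ethanol (adjusted p = 0.756, not called). Without the 3 libraries the DEHP change was -0.50 (adjusted p = 0.00071).

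Arg1, the arginase that releases urea (11846, chromosome 10, 24915207 to 24927470), fell in both groups given DEHP. Its values lay from 739 to 1049 FPKM in CT (median 923), from 635 to 940.1 in EtOH (median 763), from 646 to 852 in DEHP (median 717) and from 685 to 832 in DE (median 739). All 3 treated groups overlapped the vehicle group, but DEHP and DE did so only through CT replicate 1, at 739 FPKM. On the log2 scale it moved by -0.34 ± 0.10 with DEHP (adjusted p = 0.0102) and -0.30 ± 0.10 with both (adjusted p = 0.0162). With ethanol it was -0.17 ± 0.10 (adjusted p = 0.169, not called), and without CT replicate 1 it was called at -0.25 (adjusted p = 0.0473), as it was with no normalization factors, with TPM and with the length trend removed.

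Slc25a15, the ornithine carrier (18408, chromosome 8, 22375550 to 22398621), had the largest fall of any member with ethanol. Per library it ran from 92.4 to 135 FPKM in CT (median 109.9), from 63.8 to 85.1 in EtOH (median 75.1), from 96.3 to 110.4 in DEHP (median 104) and from 91.2 to 103 in DE (median 94.2). All 6 ethanol libraries lay below every library of the other 3 groups. The log2 change was -0.53 ± 0.08 with ethanol (adjusted p = 4.8e-05), or -34.1% in mean FPKM. It was -0.14 ± 0.08 with DEHP (adjusted p = 0.222, not called) and -0.23 ± 0.08 with both (adjusted p = 0.0264). The combined call was lost without CT replicate 2 (-0.17, adjusted p = 0.0914) or DE replicate 2 (-0.22, adjusted p = 0.0511), and with the length trend removed (-0.18, adjusted p = 0.087). The DEHP change was called without the 3 libraries with muscle or pancreas transcripts (-0.23, adjusted p = 0.0441).

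Slc25a13, the aspartate and glutamate carrier (50799, chromosome 6, 6041218 to 6217304), was not called in any comparison. Its libraries lay from 61.6 to 81.8 FPKM in CT (median 76.4), from 66.7 to 87.9 in EtOH (median 71.2), from 76.97 to 90.8 in DEHP (median 85.8) and from 72.1 to 83.5 in DE (median 79.1). The DEHP libraries lay in the upper part of the range, with a log2 change of 0.15 ± 0.07 (adjusted p = 0.12).

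Glud1, glutamate dehydrogenase (14661, chromosome 14, 34310727 to 34345033), stayed within overlapping ranges in all 4 groups. Libraries of this gene ran from 374 to 470.3 FPKM in CT (median 432), from 365 to 419.5 in EtOH (median 391), from 383 to 428 in DEHP (median 411) and from 345 to 416 in DE (median 378). The combination was called lower at -0.17 ± 0.07 (adjusted p = 0.0472). That call was lost when any of 15 single libraries was left out, with adjusted p between 0.0505 and 0.112, and with no filter, a fit of the 2 groups or the length trend removed. The changes with ethanol (-0.08 ± 0.07) and DEHP (-0.09 ± 0.07) were not called.

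Got1, cytosolic aspartate aminotransferase (14718, chromosome 19, 43499752 to 43524605), was not called against the vehicle in any group. Its range was from 129 to 209 FPKM in CT (median 153), from 114 to 158 in EtOH (median 125), from 163 to 225 in DEHP (median 181) and from 128 to 185 in DE (median 149). The vehicle range was wide and overlapped all treated groups. On the log2 scale it was -0.23 ± 0.12 with ethanol, 0.22 ± 0.12 with DEHP and -0.06 ± 0.12 with both. The DEHP change was called without CT replicate 6, the highest vehicle library (0.31, adjusted p = 0.0473).

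Over all members, FPKM ranges were apart from the vehicle for 2 genes with ethanol (Cps1 and Slc25a15, both lower), where 10.7% of all tested genes were apart. None was apart with DEHP, where 9.96% of all genes were. With the combination 3 were apart (Cps1, Otc and Asl, all lower), where 16.1% of all genes were. The overlap of Asl and Arg1 with DEHP came from CT replicate 1 alone, the library with muscle transcripts. So did that of Otc with ethanol, and of Ass1, Arg1 and Slc25a15 with the combination. The share of all genes apart without that library was not computed.

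The DNA before the start of 4 members that were called in at least 1 comparison is shown because these 4 moved in different comparisons: Nags rose, and Ass1, Otc and Slc25a15 fell. Each stretch ends at the base before the RefSeq gene (GRCm38.p6), 5′ to 3′ on the gene's strand. It is at Ass1 chr2:31470020-31470269 on the plus strand, Otc chrX:10252055-10252229 on the plus strand, Nags chr11:102145263-102145512 on the plus strand, and Slc25a15 chr8:22398622-22398871 on the minus strand. Capitals mark the letters TGACCT, the reverse complement of AGGTCA, a core motif that Hnf4a, Ppara and other liver receptors are known to bind.
Ass1: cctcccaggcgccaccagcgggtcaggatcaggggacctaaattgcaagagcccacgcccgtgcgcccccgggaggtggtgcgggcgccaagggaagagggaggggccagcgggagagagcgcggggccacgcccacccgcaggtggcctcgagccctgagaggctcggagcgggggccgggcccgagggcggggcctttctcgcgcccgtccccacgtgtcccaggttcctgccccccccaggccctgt
Otc: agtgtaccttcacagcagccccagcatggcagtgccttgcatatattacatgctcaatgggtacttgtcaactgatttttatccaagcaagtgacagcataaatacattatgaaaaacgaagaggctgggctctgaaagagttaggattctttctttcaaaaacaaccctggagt
Nags: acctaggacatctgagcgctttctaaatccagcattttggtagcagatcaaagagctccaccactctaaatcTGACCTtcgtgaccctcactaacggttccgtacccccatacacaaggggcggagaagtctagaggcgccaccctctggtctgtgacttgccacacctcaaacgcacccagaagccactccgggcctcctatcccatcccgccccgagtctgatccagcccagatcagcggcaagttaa
Slc25a15: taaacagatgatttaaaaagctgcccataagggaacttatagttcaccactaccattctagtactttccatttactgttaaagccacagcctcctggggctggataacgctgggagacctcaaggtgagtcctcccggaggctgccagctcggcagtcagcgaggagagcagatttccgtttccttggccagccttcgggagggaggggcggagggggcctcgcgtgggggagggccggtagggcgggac
RefSeq windows of 300 bases (250 before to 50 after a start) matched 7 of the 10 members, with 8 windows, and 9 motifs were searched on both strands. AGGTCA was in the windows of Nags and Got1 and in 16.255% of 32851 windows of mouse genes. TGACG, the core of cyclic AMP response elements, was in the windows of Nags and Slc25a13 and in 20.812% of all windows. The other 7 motifs were AGGTCA repeated with 1 base between (DR1), TTGCGCAA and TTGCNNAA (sites of the C/EBP family), TGACGTCA (the full cyclic AMP response element), TGTTCT (the core of glucocorticoid response elements), the full glucocorticoid response element and TATAAA (the TATA box). They were in no member's window and in 0.04%, 0.183%, 10.797%, 1.79%, 18.974%, 0.009% and 13.616% of all windows. DR1 also holds AGGTCA, TTGCGCAA also holds TTGCNNAA, TGACGTCA also holds TGACG and the full glucocorticoid element also holds TGTTCT. A match describes letters only, and a missing match says only that the letters are not in this window.

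Adding ethanol to DEHP was compared next, with the DE group set against DEHP alone. No member was called by edgeR, where 0.122% of all genes were called, 0.0467% higher and 0.0748% lower. 2 members had an unadjusted p below 0.05, and DESeq2 and the other alternatives also called 0. Cps1 was -0.31 ± 0.11 (adjusted p = 0.309), Got1 -0.28 ± 0.12 (adjusted p = 0.405) and Otc -0.21 ± 0.15 (adjusted p = 0.624). The ranges of all 10 members overlapped, and 0.664% of all genes were apart. Nags differed by 0.00 and Arg1 by 0.04.

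Adding DEHP to ethanol was compared by setting DE against EtOH. Cps1, Ass1 and Asl were called lower and Slc25a15 higher, where 27.8% of all genes were called, 12.7% lower and 15.1% higher. The log2 difference was -0.56 ± 0.12 for Ass1 (adjusted p = 0.000629) and -0.46 ± 0.10 for Asl (adjusted p = 0.000876). All 6 DE libraries of Ass1 and Asl lay below all 6 EtOH libraries. Slc25a15 was higher by 0.30 ± 0.08 (adjusted p = 0.00643) and its ranges were also apart, which made 3 members where 15.7% of all genes were apart. Cps1 was -0.33 ± 0.11 (adjusted p = 0.0224), and this call was lost without DE replicate 2 (-0.28, adjusted p = 0.0631) or EtOH replicate 4 (-0.30, adjusted p = 0.0544), and with no normalization factors, FPKM, TPM and quantile normalization. Otc was -0.36 ± 0.15 (adjusted p = 0.0777, not called), and it was called without DE replicate 5 (adjusted p = 0.0396) or DEHP replicate 1 (adjusted p = 0.0196). It was also called in 4 of 14 alternatives. These were DESeq2 (adjusted p = 0.0488), quantile normalization (0.0332), a fit of the 2 groups alone (0.00969) and the replicate block (0.0368).

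Whether ethanol had the same effect with and without DEHP was tested as an interaction, (DE minus DEHP) minus (EtOH minus CT). It was called for 1 member above 0 and 1 below, where 6.41% of all genes were called, 3.32% above and 3.09% below. Slc25a15 differed by -0.53 with ethanol alone and by -0.10 beside DEHP, an interaction of 0.44 ± 0.11 (adjusted p = 0.0226), and this call held in all alternatives run. Nags differed by 0.40 with ethanol alone and by 0.00 beside DEHP, an interaction of -0.40 ± 0.11 (adjusted p = 0.0304). The Nags call was lost without CT replicate 1 or 3, DE replicate 3, DEHP replicate 2 or 6 or EtOH replicate 3, with adjusted p between 0.0536 and 0.0675, and without the 3 libraries with muscle or pancreas transcripts (-0.30, adjusted p = 0.135). It was also lost with no normalization factors, FPKM and TPM. Cps1 had an interaction of 0.06 ± 0.15 (adjusted p = 0.849), so its separate changes of -0.37 and -0.39 sat beside -0.71 in the combination with no departure from their sum that passed the test.

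**Figure D3:**
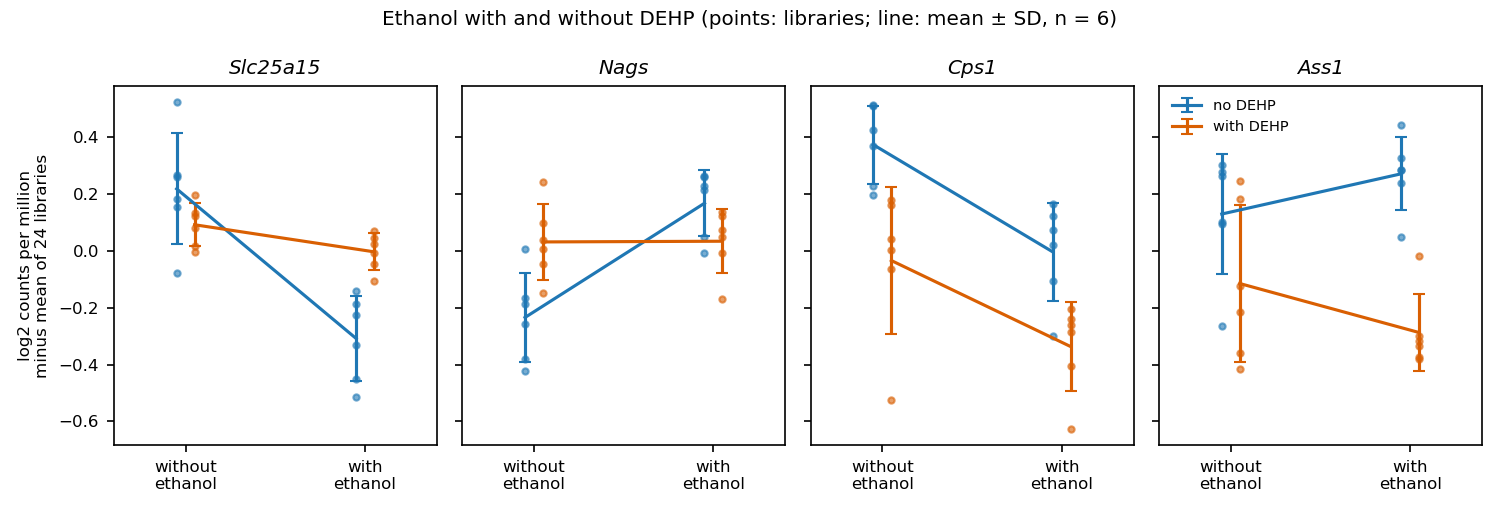
Log2 CPM (counts scaled to library size) of Slc25a15, Nags, Cps1 and Ass1 minus each gene's mean over the 24 libraries (y axis), without and with ethanol (x axis), with points for libraries and lines joining group means (bars of 1 SD, n = 6) for the groups without and with DEHP. The lines of Slc25a15 and Nags are not parallel (interactions of 0.44 and -0.40), while those of Cps1 run nearly side by side (0.06).

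Genes around the cycle were grouped into lists by known role, and a few genes stand in more than 1 list (Glul, Gls2, Rhbg, Oat, Sds, Hal and Slc1a2). Beside the counts of called genes below stand the shares of all tested genes. These were 14.2% higher and 14.5% lower with ethanol, 14.4% and 11.6% with DEHP, and 19.3% and 17.4% with both. Several counts lay near these shares, and no set test was run. Of 8 tested genes for ammonia and glutamine, 2 were called higher and 1 lower with ethanol, 2 higher and 2 lower with DEHP, and 1 higher and 3 lower with both. Slc38a2, a transporter of neutral amino acids, fell by 0.93 ± 0.12, 1.08 ± 0.12 and 1.48 ± 0.12 (adjusted p = 3.38e-06, 1.59e-07 and 7.92e-10), from 37.9 ± 7.94 FPKM in CT to 13.9 ± 1.67 in DE. Slc38a3, the hepatocyte glutamine transporter, rose with ethanol by 0.57 ± 0.08 (adjusted p = 3e-05), and its interaction was -0.73 ± 0.12 (adjusted p = 0.000649). Its change with DEHP, 0.22 ± 0.08 (adjusted p = 0.0475), was lost in 9 of 14 alternatives, among them the one without the 3 libraries with muscle or pancreas transcripts (0.11, adjusted p = 0.368). Gls2, the periportal glutaminase that feeds ammonia to the cycle, fell by 0.32 ± 0.10 with DEHP (adjusted p = 0.0207, lost without DEHP replicate 1 or 3) and by 0.53 ± 0.10 with both (adjusted p = 0.000235). Glul, glutamine synthetase of pericentral hepatocytes, rose by 0.31 ± 0.10 with ethanol (adjusted p = 0.016), a call lost under no normalization factors, TPM and quantile normalization. Rhbg, an ammonia channel, rose by 1.10 ± 0.21 with DEHP (adjusted p = 0.000367) and by 0.69 ± 0.21 with both (adjusted p = 0.0123).

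Of 9 tested genes for transamination and the malate-aspartate shuttle, 5 rose and 1 fell with DEHP, 4 rose and 1 fell with both, and 0 rose and 1 fell with ethanol. Got2, the mitochondrial partner of Got1, rose by 0.40 ± 0.08 with DEHP (adjusted p = 0.000611) and by 0.40 ± 0.08 with both (adjusted p = 0.000385). Mdh2, mitochondrial malate dehydrogenase, rose by 0.50 ± 0.10 and 0.57 ± 0.10 (adjusted p = 0.000422 and 5.33e-05), from 153 ± 25.7 FPKM in CT to 219 ± 20.8 in DEHP and 229.5 ± 25.1 in DE. Slc25a11, the oxoglutarate carrier, rose by 0.27 ± 0.08 (lost without DEHP replicate 6) and 0.42 ± 0.08. The fall with DEHP was Slc25a12, the aspartate and glutamate carrier of muscle and brain, at -1.25 ± 0.40 (adjusted p = 0.0213). Its vehicle libraries had a median of 5.19 FPKM and a highest value of 24.7 in CT replicate 1, the library with muscle transcripts. Its call was lost without that library alone. Without the 3 libraries its change was -0.55 (adjusted p = 0.00579), and the list had 3 genes called higher and 2 lower with DEHP.

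Of 18 tested genes for arginine, ornithine, proline, creatine and polyamines, 2 rose and 2 fell with ethanol, 4 and 3 with DEHP, and 5 and 3 with both. Aldh18a1, which makes the precursor of proline and ornithine from glutamate, fell by 0.82 ± 0.10 with ethanol (adjusted p = 2.18e-06), 0.53 ± 0.10 with DEHP and 0.57 ± 0.10 with both. Its interaction was 0.78 ± 0.14 (adjusted p = 0.00153), with ethanol beside DEHP at -0.05 ± 0.10. Aldh4a1, which returns proline carbon to glutamate, rose by 0.64 ± 0.10 with DEHP (adjusted p = 2.01e-05) and 0.45 ± 0.10 with both. Odc1, which turns ornithine into putrescine, rose by 0.49 ± 0.14 and 0.56 ± 0.14, and Amd1, which supplies the propylamine donor for polyamines, fell by 0.59 ± 0.16 and 0.82 ± 0.16. Of 6 tested genes for bicarbonate supply and urea export, 3 rose and 0 fell with DEHP and with both, and 1 rose and 1 fell with ethanol. Car5a, the mitochondrial carbonic anhydrase that gives Cps1 its bicarbonate, rose by 0.39 ± 0.10 with DEHP (adjusted p = 0.00385) and by 0.31 ± 0.10 with both (adjusted p = 0.0136). The combined call was lost without CT replicate 1, and without the 3 libraries at 0.19 (adjusted p = 0.0849). Aqp9, a hepatocyte channel for glycerol and urea, rose by 0.38 ± 0.08 with ethanol (adjusted p = 0.00198). Its calls with DEHP (0.27 ± 0.08) and with both (0.21 ± 0.08) were lost without the 3 libraries, at 0.18 and 0.16 (adjusted p = 0.139 and 0.167). The combined call, at an adjusted p of 0.049, was lost in 10 of 14 alternatives and in 22 of the 24 fits without a single library.

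Of 15 tested genes for amino acid deamination, 3 rose and 4 fell with ethanol, 3 rose and 1 fell with DEHP, and 3 rose and 3 fell with both. Tat, tyrosine aminotransferase, fell by 1.01 ± 0.13 with ethanol (adjusted p = 7.49e-06), 0.63 ± 0.13 with DEHP and 0.71 ± 0.13 with both. Its interaction was 0.92 ± 0.18 (adjusted p = 0.00411), with ethanol beside DEHP at -0.09 ± 0.13. Of 14 regulators known to act on nitrogen genes, 5 rose and 4 fell with ethanol, 1 rose and 5 fell with DEHP, and 1 rose and 6 fell with both. Cebpa, a transcription factor of hepatocytes, rose with ethanol by 1.02 ± 0.10 (adjusted p = 1.28e-07), from 154 ± 19.2 to 297 ± 18.2 FPKM, and stood at 161 ± 18.5 in DEHP and 161 ± 24.01 in DE. Its interaction was -1.004 ± 0.14 (adjusted p = 0.000131). Klf15, a regulator of amino acid breakdown, fell by 0.40 ± 0.09, 0.53 ± 0.09 and 0.73 ± 0.09. Hnf4a, a nuclear receptor of hepatocytes, fell by 0.37 ± 0.09 with DEHP (adjusted p = 0.00381) and 0.51 ± 0.09 with both (adjusted p = 0.00012). Sirt5, a mitochondrial deacylase that acts on Cps1 protein, rose by 0.60 ± 0.10 and 0.73 ± 0.10 (adjusted p = 6.17e-05 and 2.62e-06). No gene of these lists was called in DE against DEHP by edgeR. Foxo1, a regulator of gluconeogenesis, was at -0.45 ± 0.10 there (adjusted p = 0.0844). It was called there in 4 of 14 alternatives, which were no normalization factors, DESeq2, TPM and a filter of 1 FPKM in all libraries. In DE against CT Foxo1 was called lower at -0.99 ± 0.10 (adjusted p = 5.1e-08), the smallest adjusted p of the 14 regulators in that comparison.

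**Figure D4:**
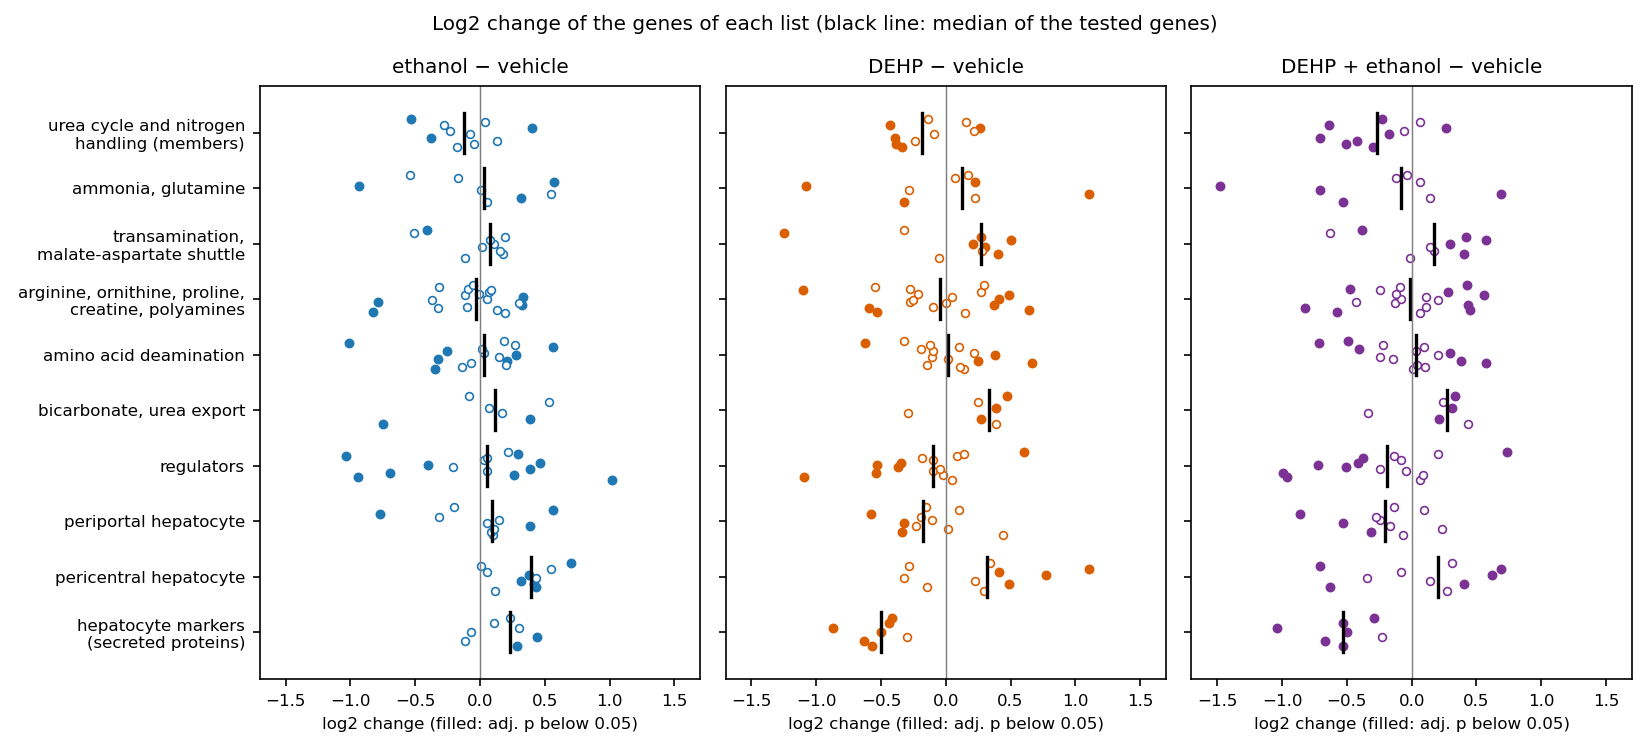
Log2 change against the vehicle group (x axis, log2 units) of each tested gene in the urea cycle members, the wider lists and the hepatocyte markers, 1 panel per treated group, with filled points for called changes and a black line at each list's median. The members' line lies left of 0 in all 3 panels (-0.13, -0.19 and -0.27), and the hepatocyte markers' line lies at 0.23 with ethanol and left of 0 in the other panels (-0.50 and -0.53).

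Of 10 periportal genes, 0 rose and 3 fell with DEHP and with both, and 2 rose and 1 fell with ethanol. Pck1, the gluconeogenic enzyme of that zone, fell by 0.77 ± 0.19, 0.58 ± 0.19 (lost without CT replicate 4 or DEHP replicate 1) and 0.86 ± 0.19. Of 10 pericentral genes, 5 rose with ethanol, 4 with DEHP and 3 with both, where 2 fell. Cyp2e1, the ethanol-oxidising cytochrome, rose by 0.42 ± 0.12, 0.49 ± 0.12 and 0.41 ± 0.12 (adjusted p = 0.0102, 0.00328 and 0.00866). The ethanol call was lost with TPM and quantile normalization, and the combined call with the length trend removed. The median of the pericentral list was 0.40, 0.32 and 0.20, and that of the periportal list 0.10, -0.17 and -0.21.

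Genes whose profile over the 24 libraries lay nearest to 2 members were found by the root mean square difference of log2 CPM, each gene centred on its own mean. For Cps1, whose own root mean square deviation was 0.30, they included Insr (0.15), Msl2 (0.16), Kynu (0.17) and Man2a1 (0.17). For Asl, the member with the smallest adjusted p in DEHP against CT, with a deviation of 0.27, they were Gls2 (0.13), Smarcd2 (0.13), Apoh (0.14), Itih2 (0.15) and F2 (0.15). Of these, Apoh, Itih2 and F2 encode plasma proteins made by the liver.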

How the data were processed

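RNA of mouse livers was sequenced in 24 libraries, per the labels, and 1 table per library was deposited. The deposited expected counts are estimated reads per gene, not normalised, and the deposited FPKM values divide them by transcript length and library total, per the file headers. Transcript length is a further column of those tables. Cuffdiff and the builds mm10 and GRCm38 are named in the submitters' processing notes. For the aligner and the counting program, the sources used here give no name.

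Groups and replicate numbers came from the titles. A gene missing from a table was set to 0. Expected counts were rounded and tested with edgeR 4.0.16 in R 4.3.3 (TMM factors, quasi-likelihood F test, all 4 groups in 1 fit, 20 residual degrees of freedom) on the 10697 genes with at least 1 FPKM in at least 6 libraries. P-values were adjusted over all of them, and the standard error is the log2 change divided by the square root of F. Totals of 7324793 to 8016662 expected counts per library limit genes of low count, not these members. The script was tested on simulated counts of DEHP against CT. It recovered 58.2% of 67 genes changed 1.5 times, 83.6% of 67 changed 2 times and 100% of 66 changed 4 times. A change of 1.5 times can therefore go uncalled. No 2 replicates had the same counts within sampling noise (lowest chi-square per gene 6.31).

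All 10 members are named. From each wider list with a called gene, up to 4 with the smallest adjusted p in a comparison could be named, with check genes and the 5 nearest profiles. Of the nearest profiles, 1 is not reported here. Alb, Slc25a12, Foxo1 in DE against DEHP and the named markers of other cell types fall outside that rule and were chosen after their values were seen. The members and lists were chosen with earlier results of these data known. Alternatives were RLE, upper quartile, quantile and no factors, DESeq2 1.42.0, limma 3.58.1 on log2(FPKM + 1), log2(FPKM + 0.1) and log2(TPM + 1), 2 other filters, a fit of 2 groups, a length correction, a replicate block, and libraries left out. Promoter letters are from RefSeq.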

Additional observations from a re-analysis of the deposited data

Results flagged for a closer look

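In a group of 6 libraries, 1 library was set far from the others where its gap to the nearest took more of the group's range than Dixon's 95% critical value. This held for 4 of the 40 pairs of member and group, and chance gives about 1 in 20. Cps1 in DEHP replicate 1 was the lowest at 457.72 FPKM, with the next at 663.3 and the highest at 761.43, a gap of 0.677 of the range. Ass1 in DE replicate 1 was the highest at 2476.36 FPKM, with the next at 2143.39, a gap of 0.634. Slc25a13 in EtOH replicate 4 was the highest at 87.94 FPKM, with the next at 73.65, a gap of 0.673. Got1 in EtOH replicate 3 was the highest at 158.29 FPKM, with the next at 129.67, a gap of 0.642.

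The effect of ethanol differed with and without DEHP, by a test of the difference itself, for Slc25a15 (0.44 on the log2 scale, adjusted p = 0.0226) and for Nags (-0.40, adjusted p = 0.0304). The Slc25a15 call held in the alternatives run, while the Nags call was lost in 5 of 13 alternatives and in 6 of the 24 fits without a single library.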

How the results depend on the processing

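Each of the 60 member changes (10 genes in 6 comparisons) was recomputed under 14 alternatives (13 for the interaction, which has no fit of 2 groups) and with each of 24 libraries left out. No call changed direction, and 790 of 830 values outside the single-library fits stayed on their side of the threshold. Some uncalled values changed sign, such as Ass1 with ethanol, at 0.13 and as low as -0.03. The cause of a change of call was not tested.

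Counts that moved by more than 1.5 times were as follows. Without normalization factors, ethanol against CT gave 930 genes higher and 4 members lower, and the interaction gave 203 genes and 0 members below 0. With limma on log2(TPM + 1), which shifts the median of all genes by -0.15 for ethanol against CT and by 0.12 for DE against EtOH, ethanol gave 481 higher and 2764 lower with 6 members lower. DE against EtOH then gave 2563 higher and 695 lower with 2 members higher, DE against DEHP 2 genes higher, and the interaction 120 genes and 0 members below 0. With limma on log2(FPKM + 1) and log2(FPKM + 0.1) the interaction gave 215 and 211 genes and 0 members below 0, and DE against DEHP 2 and 2 genes higher and 5 and 4 lower. DE against DEHP gave 18 higher and 24 lower with DESeq2, 0 and 1 with no filter, 1 and 5 with a fit of the 2 groups, and 1 and 1 with the length trend removed. DEHP against CT gave 0 members higher with a fit of the 2 groups. Without CT replicate 1, DE replicate 6 and DEHP replicate 6, DEHP against CT gave 0 members higher, DE against DEHP 4 genes lower, and the interaction 196 genes above and 169 below 0 with 0 members below. With 1 library left out at a time, DE against DEHP gave 0 to 8 genes higher and 0 to 12 lower, DEHP against CT 0 to 2 members higher, and the interaction 208 to 408 genes and 0 to 1 members below 0.

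Same-numbered libraries did not deviate together (correlations of -0.21 to 0.21, at most 2 of 6 pairs over 0.1, at most 1 of 6 nearest to its own number). In 6 pairs per comparison a weak pairing could go unseen, and the labels name none. With the replicate block, DE against DEHP gave 2 genes higher and 3 lower, DE against CT 6 members lower (Glud1 at -0.17, adjusted p = 0.0634) and DE against EtOH 4 members lower (Otc at -0.38, adjusted p = 0.0368), and no other member call changed.

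Depth did not limit the members, whose lowest count in a library was 606.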
